A study of Mus musculus with 12 samples.

Results

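Chitinases and chitinase-like proteins of the mouse lung were followed through 6 genes chosen by symbol from the count table: Chia1, Chit1, Chil1, Chil3, Chil4 and Retnla. All 6 were among the 54532 genes of the table. RNA of whole lung was sequenced from 12 mouse samples, 6 labelled control and 6 labelled acute lung injury (ALI), and the design text attributes the injury to seawater drowning. The sources used here do not give strain, sex, age, genotype, exposure or the time between injury and collection. No label says whether each sample is a different animal, and a p-value below therefore reflects spread among samples that may be technical. The surfactant gene Sftpc, a marker of lung epithelium, was abundant in both groups, at 13924 ± 2198 CPM (counts scaled to a common library size, mean ± SD of 6 samples) among controls and 11610 ± 1635 CPM among ALI samples.

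Chitinases cut chitin, the polysaccharide of fungal walls, insects and crustacean shells, which mammals do not make. Chia1 encodes acidic chitinase and Chit1 chitotriosidase, the active enzymes of the family. Chil1 (also called BRP-39), Chil3 (Ym1) and Chil4 (Ym2) encode secreted relatives that keep the fold and have lost the enzyme activity. Retnla encodes resistin-like alpha (RELM-alpha or FIZZ1), a small secreted protein of an unrelated family that is often read together with Chil3 as a mark of macrophages and epithelium exposed to the type 2 cytokines IL-4 and IL-13 in mice.

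The stretch of coding sequence around the catalytic glutamate shows which genes belong to the enzymes. The 24 bases below come from the longest coding transcript of each gene in GENCODE M21 (build GRCm38), 5′ to 3′ on the coding strand. They lie at chr3:106122448-106122471 (plus strand) for Chia1, chr1:134145334-134145357 (plus) for Chit1, chr1:134185231-134185254 (plus) for Chil1, chr3:106160428-106160451 (minus) for Chil3 and chr3:106210533-106210556 (minus) for Chil4, in 1 coding exon each. Capitals mark the codon at the position of the catalytic glutamate.
Chia1: gatggactggacctggactggGAA
Chit1: gatggccttgaccttgactggGAG
Chil1: gatgggctggatctcgcctggCTC
Chil3: gatggcctcaacctggactggCAG
Chil4: gatggcctcaacctggactggCAG
Chia1 and Chit1 end in GAA and GAG, both codons for glutamate, while Chil1 ends in CTC and Chil3 and Chil4 end in CAG, which code for other residues. The stretch was the same in Chil3 and Chil4, and over their whole coding sequences the 2 genes were 94.4% identical, against 63.9% between Chil3 and Chia1 and 54.0% between Chil1 and Chil3. Because of that likeness, 29.4% of all windows of 50 bases and 5.42% of all windows of 100 bases in the Chil3 transcript also occur in Chil4 or in the predicted gene Gm6522. The other 4 members shared no window of 50 bases with any other annotated gene. The sources used here do not state read length or how reads matching several genes were handled. The counts of Chil3 and Chil4 can therefore miss or share reads. No exon base of the 6 genes overlaps an exon of another annotated gene.

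The upstream regions of Chil3, Chil4 and Retnla are shown because Chil3 and Chil4 differ in level despite their likeness, and Retnla changed most among the members. Each is the 250 bases before the transcription start of RefSeq (build GRCm38.p6), 5′ to 3′ on the strand of the gene, at chr3:106167565-106167814 (minus) for Chil3, chr3:106219480-106219729 (minus) for Chil4 and chr16:48842359-48842608 (plus) for Retnla. Capitals mark matches to TTCNNNNGAA (STAT6-type), TTCNNNGAA (STAT-type), TTNNGCAA (C/EBP-type) or TATAAA, searched on both strands, and none of these matches overlaps another.
Chil3: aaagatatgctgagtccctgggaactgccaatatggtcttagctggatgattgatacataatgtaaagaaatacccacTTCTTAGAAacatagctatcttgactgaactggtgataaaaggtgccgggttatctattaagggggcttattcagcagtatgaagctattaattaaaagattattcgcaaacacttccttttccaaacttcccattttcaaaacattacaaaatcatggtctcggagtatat
Chil4: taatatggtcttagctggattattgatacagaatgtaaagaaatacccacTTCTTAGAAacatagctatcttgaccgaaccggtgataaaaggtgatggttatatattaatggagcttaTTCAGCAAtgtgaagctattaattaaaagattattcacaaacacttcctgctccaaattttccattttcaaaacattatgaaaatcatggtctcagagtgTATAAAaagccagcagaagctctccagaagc
Retnla: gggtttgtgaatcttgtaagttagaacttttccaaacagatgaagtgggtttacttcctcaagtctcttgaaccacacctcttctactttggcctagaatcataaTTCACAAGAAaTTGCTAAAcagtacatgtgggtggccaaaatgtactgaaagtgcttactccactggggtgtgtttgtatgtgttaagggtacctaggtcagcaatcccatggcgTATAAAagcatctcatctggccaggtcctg
Chil3 and Chil4 were 90.1% identical over the 223 aligned columns of these windows, in which bases -222 to -1 of Chil3 pair with bases -250 to -29 of Chil4, the annotated starts not being at the same place. TTCNNNGAA occurred in both, at -172 to -164 in Chil3 and -200 to -192 in Chil4, and in 7.02% of all 32851 upstream windows of RefSeq. Retnla held TTCNNNNGAA at -145 to -136, a motif of 5.85% of all windows, and, on the other strand, TTNNGCAA at -134 to -127, a motif of 9.56% of windows that Chil4 also held at -131 to -124. TATAAA occurred in the windows of Retnla, Chil4 and Chia1 and in 12.4% of all windows. In Chil4 it lay at -31 to -26, and base -1 of Chil3 pairs with base -29 of Chil4. The Chil3 window thus ends inside the stretch that pairs with this match. Whether Chil3 holds TATAAA at that place cannot be read from its window. The windows of Chil1 and Chit1 held none of the 4 motifs, and a match is a description of the letters only.

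The design sets injured against control lungs. Of the 6 genes, 4 had enough counts to be tested and all 4 differed in edgeR's quasi-likelihood test. Chil1, Chil3 and Retnla were higher in injured lungs, and the enzyme Chia1 was lower. Among all 16185 tested genes, 36.6% were called at an adjusted p under 0.05, 18.9% as higher and 17.7% as lower. Every ALI value of Chil1, Chil3 and Retnla lay above every control value, as in 13.1% of tested genes, and every ALI value of Chia1 lay below, as in 8.19%. The other 2 genes, Chil4 and Chit1, were close to absent. In whole tissue, fewer cells of a type and less RNA per cell cannot be told apart.

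**Figure D1:**
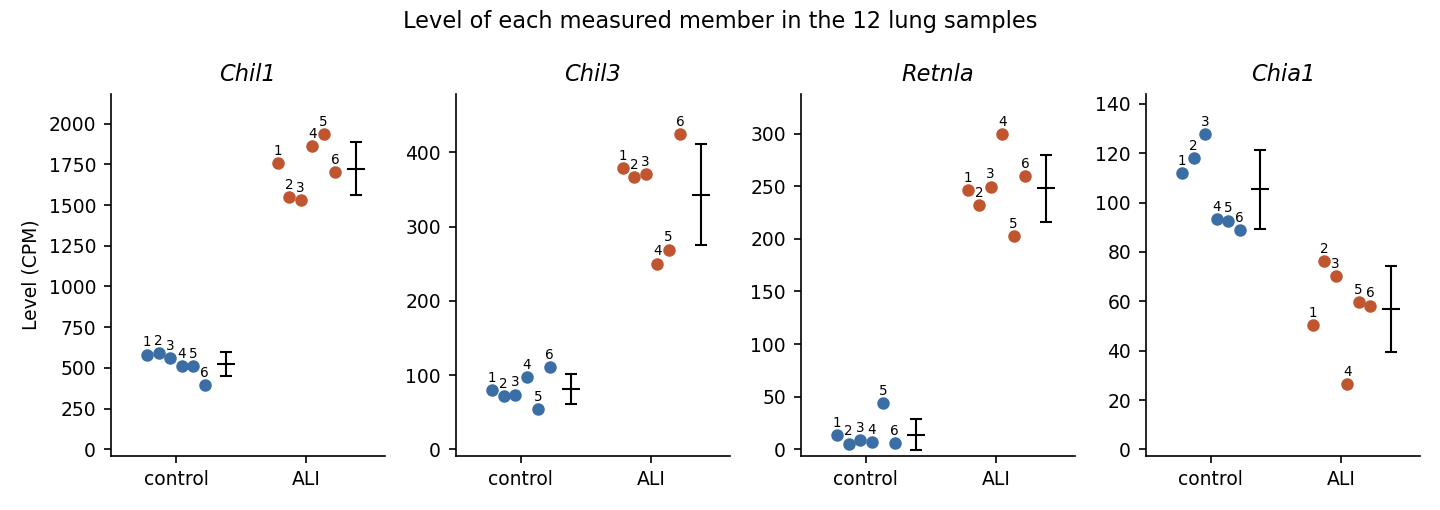
Level in CPM (linear axis, counts scaled to a common library size) of Chil1, Chil3, Retnla and Chia1 in each control (blue) and ALI (orange) sample, with the replicate number beside each point and the group mean ± SD as a bar to the right. The groups do not overlap in any of the 4 genes, control 5 is the highest Retnla control at 43.9 CPM, and ALI 4 is the lowest Chia1 sample at 26.6 CPM.

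Among the enzymes, Chia1 (ENSMUSG00000062778, chromosome 3, 106113229 to 106132120 on GRCm38, plus strand) digests chitin in airways and stomach. Its level ran from 88.8 to 128 CPM in controls, with a median of 103, and from 26.6 to 76.3 CPM in ALI, with a median of 59.0. No ALI sample reached the lowest control, and ALI 4 was lowest of all. The mean went from 105 ± 15.99 CPM (SD, n = 6) to 56.8 ± 17.5 CPM (SD, n = 6), which is -0.89 ± 0.20 (SE) in log2 (edgeR adjusted p = 0.00324). Chit1 (ENSMUSG00000026450, chromosome 1, 134111242 to 134151540, plus strand), known in humans as a product of activated macrophages, had 1 count over the 6 controls, in control 2, and 9 counts over the 6 ALI samples, of which ALI 3 held 6, ALI 1 held 2 and ALI 4 held 1. The ratio of ALI to control was 8.68, with an exact 95% counting interval of 1.20 to 380 that leaves out the spread between samples, and 3 of 6 ALI samples had no count.

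Club cells are the secretory cells of the airways, and the summed level of their markers fell between groups, as Chia1 did. Sum and Chia1 did not order the samples alike. Control 5 had the highest sum, at 28183 CPM, with Chia1 at 92.7 CPM. ALI 4 had the lowest Chia1, at 26.6 CPM, with a sum of 5532 CPM. Of 7 tested club cell markers 4 fell and none rose, and their summed level ran from 11236 to 28183 CPM in controls and from 3106 to 7068 CPM in ALI, with Krt15 near 0 at 46 and 5 counts per group. The summed level of 8 alveolar type 2 markers overlapped between groups, at 19180 to 26040 CPM in controls and 16085 to 21253 CPM in ALI, with Sftpc making up 63.1% of the sum in controls. Of those 8, Lamp3 and Lyz1 rose (log2 change 0.44 and 0.58) and Sftpb fell by 0.62. Within samples, the log2 ratio of Chia1 to the club cell sum averaged -7.19 ± 0.59 in controls and -6.40 ± 0.74 in ALI (SD, n = 6 each). The difference of 0.79 did not pass the threshold (two-sided exact permutation p = 0.0693, adjusted p = 0.104 over the 9 ratios compared). It passed without ALI 4, where it was 1.05 (exact permutation adjusted p = 0.0156). Scgb1a1, the main secretory protein of club cells, made up 75.6% of the sum in controls and 55.6% in ALI, and without it the difference was -0.08 (exact permutation adjusted p = 0.801). The part of these cells in the fall of Chia1 was not tested beyond that ratio.

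Among the chitinase-like genes, Chil1 (ENSMUSG00000064246, chromosome 1, 134182176 to 134190181, plus strand) encodes a secreted lectin of macrophages, neutrophils and alveolar epithelium. It ran from 394 to 591 CPM in controls, with a median of 536, and from 1530 to 1933 CPM in ALI, with a median of 1729. The 6 samples of each group lay close together, with a coefficient of variation of 13.9% in controls and 9.45% in ALI. The mean rose 3.28-fold, from 525 ± 72.8 to 1722 ± 163 CPM (SD, n = 6 each), or 1.71 ± 0.11 (SE) in log2 (edgeR adjusted p = 7.89e-08). Chil1 alone took 0.157% to 0.190% of all counts in the ALI samples, against 0.0412% to 0.0602% in controls. By mean CPM it moved from rank 185 to rank 32 among the tested genes.

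Chil3 (ENSMUSG00000040809, chromosome 3, 106147554 to 106167564, minus strand) encodes a secreted protein of alveolar macrophages and neutrophils that can form crystals in inflamed mouse lungs. It ran from 54.2 to 111 CPM in controls, with a median of 76.9, and from 249.98 to 424 CPM in ALI, with a median of 369. ALI 4 and ALI 5 were the lowest injured samples, at 249.98 and 269 CPM, and both were more than any control. The mean rose 4.22-fold, from 81.2 ± 20.1 to 343 ± 68.3 CPM (SD, n = 6 each), or 2.08 ± 0.18 (SE) in log2 (edgeR adjusted p = 5.93e-07).

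Chil4 (ENSMUSG00000063779, chromosome 3, 106201490 to 106219507, minus strand), a gene of the allergic mouse airway, had no counts in the 6 controls and 1 count over the ALI group, in ALI 4. A count of 0 allows up to 3 counts over the 102021019 control counts, or 0.0294 CPM. With 0 counts against 1, no fold is given. Chil3, with its near-identical coding sequence and upstream region, held 8365 counts over the controls and 36913 over the ALI samples. Chil5 and Chil6, chitinase-like genes of the same chromosome, stayed under the filter too, with 38 and 11 counts over the controls and 21 and 1 over the ALI samples. Chil6 counts were in 4 of 6 controls and 1 ALI sample, a ratio of ALI to control of 0.0877 (exact 95% counting interval 0.00204 to 0.603).

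Retnla (ENSMUSG00000061100, chromosome 16, 48842551 to 48844461, plus strand) changed most. It ran from 5.57 to 43.9 CPM in controls, with a median of 7.63, and from 203 to 299 CPM in ALI, with a median of 248. Control 5 stood apart at 43.9 CPM, while the other controls lay at or under 13.4 CPM and the lowest ALI sample was at 203 CPM. The mean went from 14.02 ± 14.9 to 248 ± 31.8 CPM (SD, n = 6 each), a rise of 17.8-fold, or 4.15 ± 0.54 (SE) in log2 (edgeR adjusted p = 9.43e-05). By log2 change it ranked 39 from the top among all tested genes.

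Control 5 also carried transcripts of adipose tissue, which is known to express Retnla in mice. The summed level of 8 adipose markers was 5007 CPM in control 5 and 687 CPM in ALI 2, against 6.39 to 33.4 CPM in the other controls and 10.5 to 16.1 CPM in the other ALI samples, and none of the 8 was at 0 in all samples. Resistin itself (Retn), the adipose member of the family, had 377 counts in control 5 and 372 in ALI 2 of 403 and 392 over the groups. Ucp1, one of the 8 markers, reached 2843 CPM among controls and at most 1.92 CPM among ALI samples, so the 2 adipose signals differed in make-up. Retnla in ALI 2 was 232 CPM, within the range of the other ALI samples. Whether adipose tissue accounts for the Retnla level of control 5 was not tested. Without control 5 the log2 change of Retnla was 4.94 (edgeR adjusted p = 4.41e-09), and without control 5 and ALI 2 it was 4.96. In that last comparison 42.0% of 16232 tested genes were called, 22.1% higher and 20.0% lower, and the same 3 members were called higher and the same 1 lower.

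Levels of different genes were compared per length of the gene, as CPM per kb. In controls the order was Chil1 at 187 ± 26.0, Chia1 at 55.4 ± 8.40, Chil3 at 49.8 ± 12.3 and Retnla at 23.4 ± 24.9 CPM per kb (SD, n = 6 each). Chil1 stood clear of the rest, while Chia1 and Chil3 overlapped (46.7 to 67.1 and 33.2 to 67.8), and Retnla overlapped them through control 5 alone. In ALI the order was Chil1 at 614 ± 58.0, Retnla at 414 ± 53.1, Chil3 at 210 ± 41.8 and Chia1 at 29.9 ± 9.17 CPM per kb, and no neighbours in it overlapped. By mean, Chia1 went from the second place to the lowest of the 4, and Retnla from the lowest to the second place. The deposited gene length of Chil1 is 2804 bases and its longest coding transcript has 1839, and with the latter its level was 286 CPM per kb in controls and 936 in ALI, with the order of the genes unchanged.

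**Figure D2:**
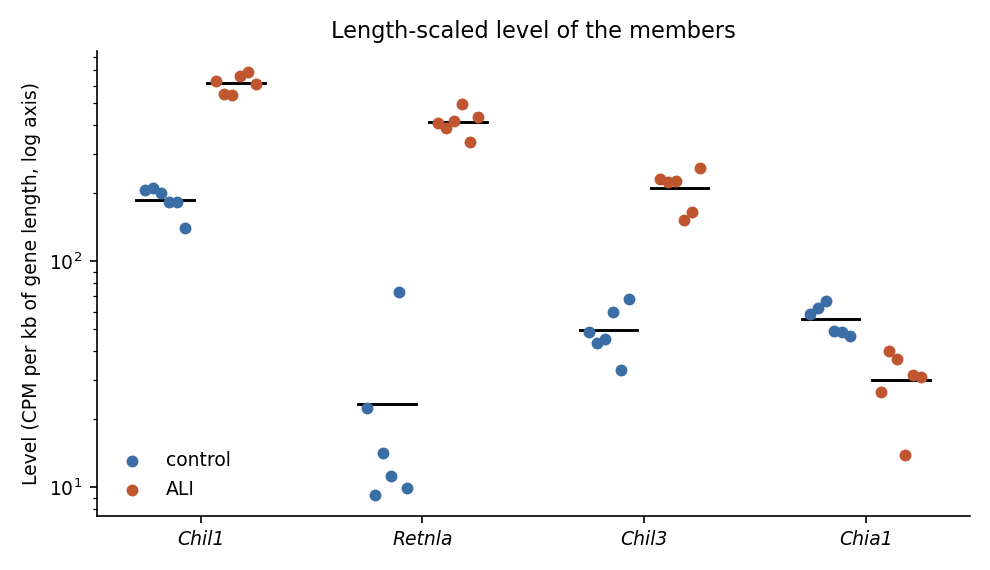
Level in CPM per kb of gene length (log axis) of Chil1, Retnla, Chil3 and Chia1 in each control (blue) and ALI (orange) sample, with the group mean as a line. In ALI the 4 genes form separate bands with means of 614, 414, 210 and 29.9 CPM per kb, while in controls Chia1 and Chil3 overlap.

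Whether members changed by different amounts was asked from ratios within a sample, which do not depend on how libraries are scaled. Each of 9 ratios was tested by exact permutation (two-sided, 6 against 6), whose smallest possible p is 0.0021645. Chia1 relative to Chil1 had a log2 ratio of -2.32 ± 0.14 in controls and -4.99 ± 0.64 in ALI (SD, n = 6 each), a difference of -2.67 with no overlap (exact permutation p = 0.0021645, adjusted p = 0.00974). Chil3 relative to Retnla went from 2.95 ± 1.42 to 0.45 ± 0.36, a difference of -2.50 (exact permutation p = 0.0130, adjusted p = 0.0234), and control 5, at the level of the ALI samples, was the control that overlapped. Without control 5 that difference was -3.03 (exact permutation adjusted p = 0.0130). Chil1 relative to Chil3 went from 2.72 ± 0.52 to 2.35 ± 0.41, a difference of -0.37 that was within the spread between samples (exact permutation p = 0.188, adjusted p = 0.242). The ratios to Chil4 and Chit1 rest on counts at or near 0 and are set by the pseudocount: Chil3 relative to Chil4 differed by 1.91 (exact permutation adjusted p = 0.0195) and Chil1 relative to Chit1 by 0.80 (exact permutation adjusted p = 0.317).

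**Figure D3:**
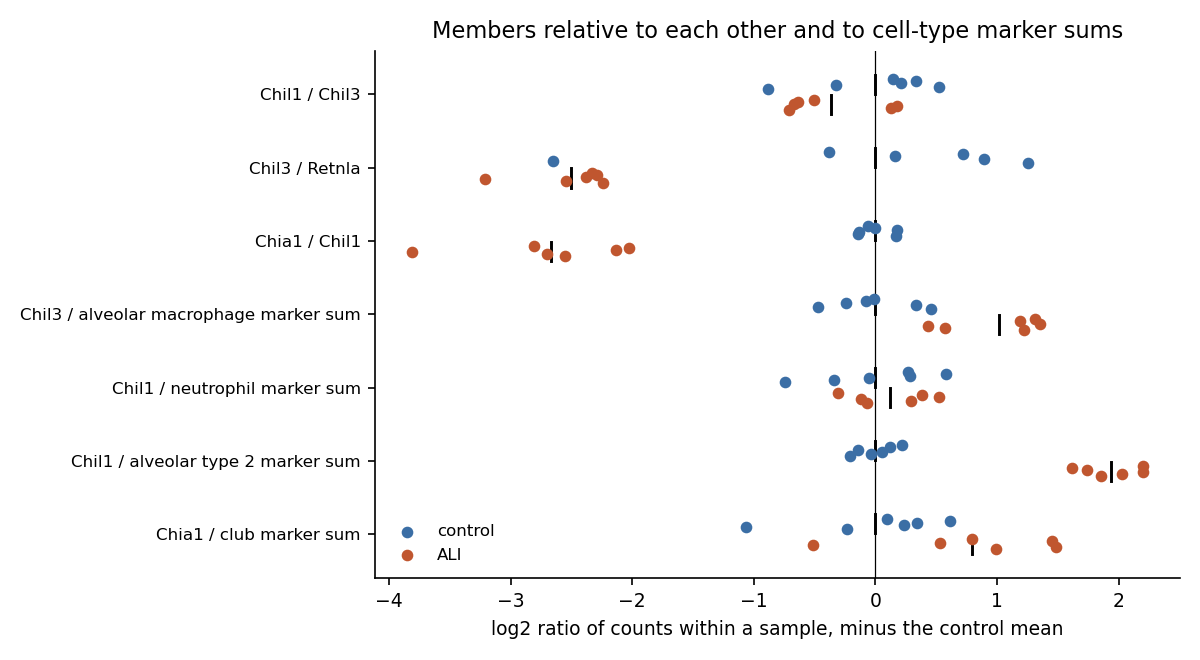
Log2 ratio of counts within each sample, shown as the distance from the control mean (linear axis in log2 units), for 3 pairs of members and 4 pairs of a member and a summed cell-type marker list, with controls in blue, ALI in orange and group means as lines. Chia1 relative to Chil1 and Chil1 relative to the alveolar type 2 sum separate the groups fully, with differences of -2.67 and 1.94, while Chil1 relative to the neutrophil sum overlaps. A single marker weighs heavily in each sum. In controls Car4 made up 37.1% of the alveolar macrophage sum and Csf3r 43.8% of the neutrophil sum. Sftpc made up 63.1% of the alveolar type 2 sum and Scgb1a1 75.6% of the club cell sum.

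Most markers of alveolar macrophages and neutrophils rose between groups, as did Chil1, Chil3 and Retnla. Of 12 alveolar macrophage markers 8 rose and 2 fell, and their summed level ran from 498 to 578 CPM in controls and from 959 to 1229 CPM in ALI. Chil3 relative to that sum was higher by 1.01 on the log2 scale in ALI, from -2.73 ± 0.35 to -1.71 ± 0.40 (SD, n = 6 each, exact permutation p = 0.00433, adjusted p = 0.0130). That difference depended on Car4, a carbonic anhydrase that made up 37.1% of the sum in controls and 11.5% in ALI and was, with Fabp1, one of the markers that fell. Over the other 11 markers Chil3 was higher by 0.52, which did not pass the threshold (exact permutation p = 0.0390, adjusted p = 0.0701). Single markers, all 12 given after their values were seen, changed unequally on the log2 scale, beside 2.08 for Chil3. Marco, Itgax, Atp6v0d2 and Krt79 rose by 2.81, 2.70, 2.37 and 2.35. Siglecf, Plet1, Mrc1 and Ear2 rose by less, at 1.70, 1.37, 1.30 and 1.07. Bhlhe41 (0.27) and Pparg (0.14) did not pass the threshold, and Car4 and Fabp1 changed by -0.62 and -1.64. Of 9 tested neutrophil markers 8 rose and none fell, with a sum of 78.3 to 131 CPM in controls and 211 to 432 CPM in ALI. Chil1 relative to the neutrophil sum was 2.33 ± 0.48 in controls and 2.45 ± 0.33 in ALI, a difference of 0.12 (exact permutation p = 0.619, adjusted p = 0.619) that was -0.03 without control 6. Csf3r made up 43.8% of the neutrophil sum in controls, and without it the difference was 0.07 (exact permutation adjusted p = 0.801). Relative to the alveolar type 2 sum Chil1 was higher by 1.94, from -5.39 ± 0.16 to -3.45 ± 0.24, with no overlap (exact permutation p = 0.0021645, adjusted p = 0.00974), and by 1.87 with Sftpc left out of the sum.

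Markers of other cells that can hold these transcripts were summed in the same way. Of 10 interstitial macrophage markers 8 rose and 1 fell, and the sum ran from 589 to 794 CPM in controls and from 2180 to 3390 CPM in ALI. Apoe was the most abundant of them, at 431 ± 79.6 CPM in controls and 1984 ± 464 CPM in ALI (SD, n = 6 each). The marker that fell was Lyve1, from 184 ± 63.3 to 74.2 ± 26.1 CPM, and Folr2 did not pass the threshold (edgeR adjusted p = 0.729). These 3 were named after their values were seen. Of 6 monocyte markers 3 rose and 1 fell (sum 123 to 160 against 232 to 345 CPM). Eosinophil and basophil markers stayed low, at 4.62 to 7.45 CPM summed in controls and 2.46 to 6.20 CPM in ALI, with Ear6 at 0 in all samples and Epx, the eosinophil peroxidase, at 1 count in each group. Of 5 tested goblet cell markers 3 rose and none fell (sum 4.45 to 55.9 against 20.3 to 130 CPM), 2 of them without control 5 and ALI 2, and none of the 7 listed was at 0 in all samples. The part of each of these cell types in the changes of Chil1, Chil3 and Retnla was not tested beyond the ratios given.

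The genes with the most similar profile were found by the root mean square difference, in log2 CPM over the 12 samples, between profiles centred on their own means. The change between groups is part of such a profile, so genes of like log2 change score as similar. Hexa changed by 1.70 beside 1.71 for Chil1, and Cx3cr1 by 2.04 beside 2.08 for Chil3. The closest genes lie under the median by the way they were picked, and shared control was not tested. For Chil1 they were Hexa, a lysosomal hexosaminidase, at 0.14 and the complement protease C1s1 at 0.16, against a median of 0.94 over all tested genes. For Chil3 they were Cx3cr1, the fractalkine receptor of monocytes and macrophages, at 0.22 and Adgrg5, an adhesion receptor, at 0.27, against a median of 1.15. Chil1 and Chil3 differed from each other by 0.46, which ranked Chil3 at 741 in likeness to Chil1 and Chil1 at 234 in likeness to Chil3 among the tested genes. For Retnla they were Slc26a4, the anion exchanger pendrin, at 0.53 and Wfdc17, a secreted protein of macrophages, at 0.58, against a median of 2.43. Pendrin rose from 5.05 ± 4.25 to 58.9 ± 11.6 CPM (log2 change 3.56, edgeR adjusted p = 1.78e-05). Without control 5 and ALI 2 its log2 change was 4.13, beside 4.96 for Retnla. The likeness of profiles was not computed again without control 5. For Chia1 they were the homeobox gene Hoxa7 at 0.19 and Dpysl2, a cytoskeletal protein, at 0.23, against a median of 0.68.

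Among the other genes of the 2 families, 4 of 8 were tested, 1 rose and none fell. The riser was Retnlg, the resistin-like gene of neutrophils and a neighbour of Retnla, from 2.64 ± 0.863 to 7.28 ± 2.55 CPM, a log2 change of 1.46 (edgeR adjusted p = 0.000712). The distant relatives Chid1, at 27.2 ± 4.28 and 30.5 ± 2.47 CPM (log2 change 0.17, edgeR adjusted p = 0.241), and Ctbs, the lysosomal chitobiase, at 18.9 ± 3.34 and 20.5 ± 1.405 CPM (0.12, adjusted p = 0.432), did not pass the threshold.

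Type 2 cytokines are the known inducers of Chil3, Chil4, Chia1 and Retnla in mice. Of 7 ligand genes 4 were tested, 2 rose and 1 fell. Il4 was at 2.004 ± 0.648 CPM in controls and 1.79 ± 0.77 CPM in ALI (SD, n = 6 each, edgeR adjusted p = 0.728), and Il13 had no counts in controls and 2 over the ALI group, too few to test. The alarmin Il33 rose by 0.79 on the log2 scale, from 66.7 ± 18.1 to 115 ± 22.4 CPM (edgeR adjusted p = 0.00251), and the growth factor Areg by 1.05 (adjusted p = 0.0195). Tslp, an epithelial alarmin, fell by 1.33 (adjusted p = 0.00907). The median log2 change of the 4 was 0.31, beside -0.06 over all tested genes.

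Of 14 tested receptors and signalling genes 6 rose and 1 fell, with a median of 0.17. Il13ra1, which pairs with the IL-4 receptor, rose from 48.9 ± 3.62 to 104 ± 10.9 CPM (log2 change 1.09, edgeR adjusted p = 2.23e-07). The shared chain Il2rg rose by 0.57, the TSLP receptor Crlf2 by 0.64, the kinases Jak3 by 0.39 and Tyk2 by 0.54, and the inhibitor Socs1 by 1.08. Gata3, the transcription factor of type 2 lymphocytes, was the member that fell, from 13.3 ± 2.51 to 7.07 ± 1.03 CPM (log2 change -0.91, adjusted p = 0.000282). Il4ra, at 237 ± 22.1 and 213 ± 8.45 CPM, and Stat6, at 141 ± 11.98 and 149 ± 5.58 CPM, did not pass the threshold (edgeR adjusted p = 0.134 and 0.382). The decoy receptor Il13ra2 had 6 counts over the controls and 13 over the ALI samples and was not tested.

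Of 19 tested target genes of IL-4 and IL-13, 9 rose, 1 fell and 9 did not pass the threshold, with a median of 0.77. Over all tested genes 18.9% were called higher and 17.7% lower. Those that did not pass, named after their values were seen, were Ccl11, Ccl17, Ccl24, Alox15, Tgm2, Mgl2, Itln1, Pparg and Postn. Mrc1 and Pparg are among the alveolar macrophage markers too. Clec7a, the beta-glucan receptor dectin-1, rose most, from 43.3 ± 10.5 to 579.7 ± 165 CPM (log2 change 3.74, edgeR adjusted p = 5.74e-08). Arg1, the arginase of macrophages, went from 1.25 ± 0.295 to 14.3 ± 6.89 CPM (log2 change 3.52, adjusted p = 1.33e-06) and the mannose receptor Mrc1 from 76.8 ± 19.0 to 189 ± 16.2 CPM (1.30, adjusted p = 1.07e-05). The chemokine Ccl22 rose by 2.06, the checkpoint ligand Pdcd1lg2 by 2.04, the mucin Muc5ac by 2.59 and the lectin Clec10a by 1.70. The gene that fell was Klf4, a transcription factor of macrophages and epithelium (log2 change -0.32, edgeR adjusted p = 0.0468), named after its values were seen.

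**Figure D4:**
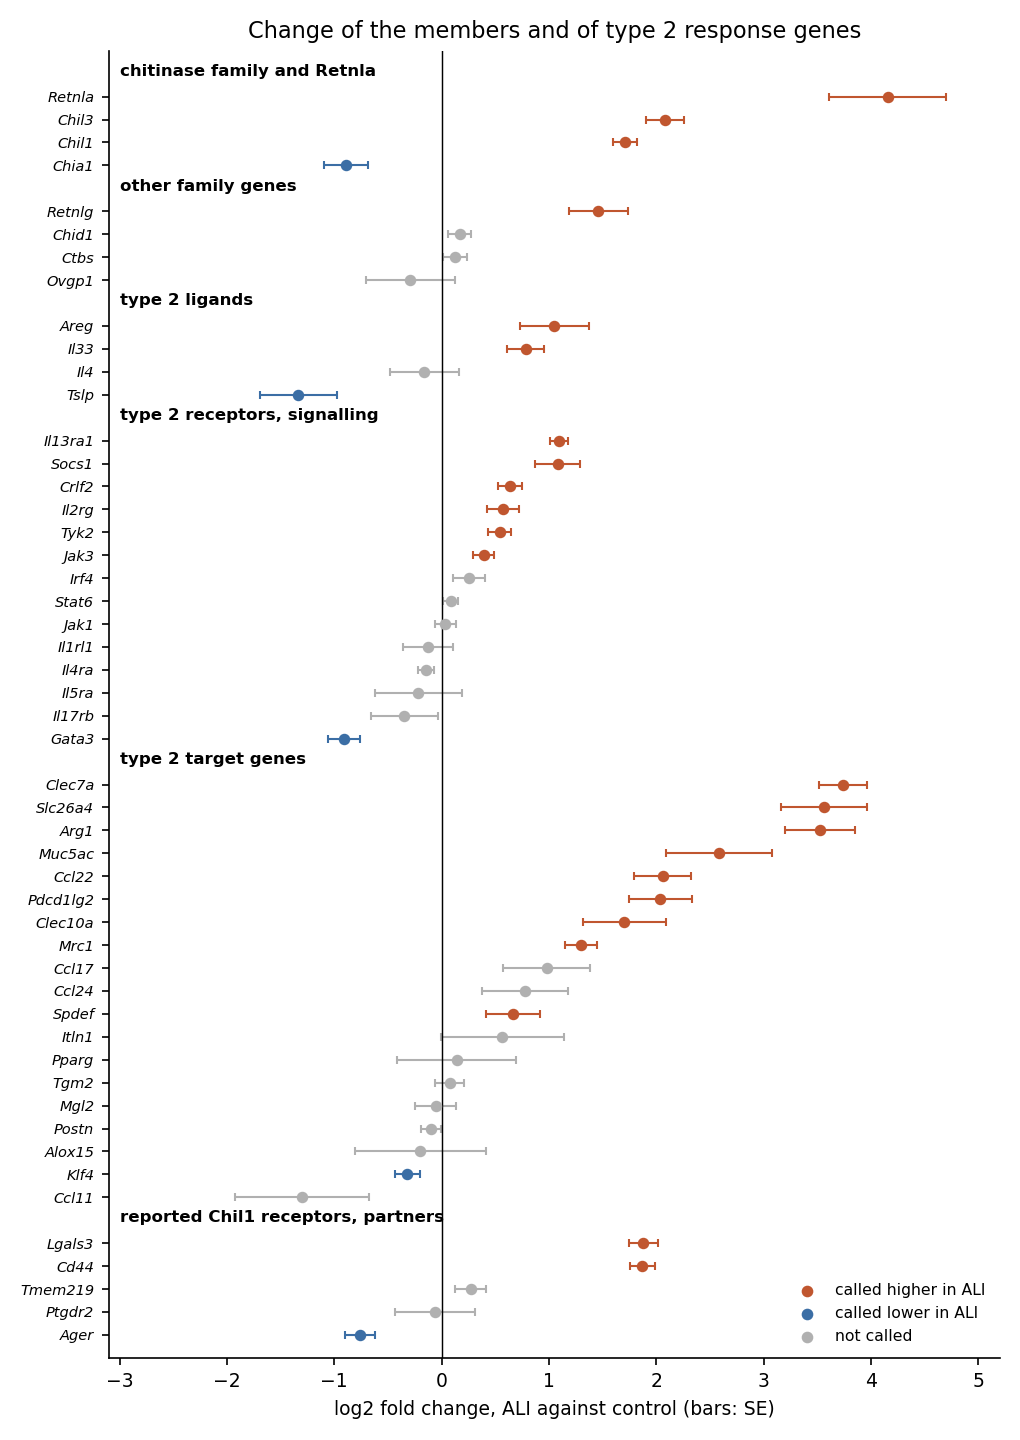
Log2 fold change, ALI against control, with SE bars, of the tested members, the tested genes of the same families, type 2 ligands, receptors and targets, and reported Chil1 receptors and partners, coloured by the call at an edgeR adjusted p under 0.05. Retnla has the largest change at 4.15, Chia1 lies on the opposite side at -0.89, and Il4, Il4ra and Stat6 lie near 0 and were not called.

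Receptors and partners reported for the Chil1 protein, from mice and humans, were unequal in their change. Of 5 tested genes 2 rose and 1 fell. Cd44, a hyaluronan receptor, rose from 136 ± 17.0 to 498 ± 79.5 CPM (log2 change 1.87, edgeR adjusted p = 6.63e-08), and Lgals3, galectin-3, from 95.1 ± 10.1 to 350.4 ± 72.8 CPM (1.88, adjusted p = 1.50e-07). Ager, the receptor RAGE and a marker of alveolar type 1 cells, fell by 0.76 (adjusted p = 0.000583). Tmem219 (log2 change 0.27, edgeR adjusted p = 0.164) did not pass the threshold, and passed it without control 5 and ALI 2 (0.43, adjusted p = 0.00297).

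Of 13 tested genes that bind or break down microbial and amino-sugar polymers, 12 rose and none fell, with a median of 1.58. The exception, named after its values were seen, was Reg3g, a secreted antimicrobial lectin (log2 change 2.19, edgeR adjusted p = 0.234). Hexa, a lysosomal enzyme that removes single amino sugars from chains, rose by 1.70 (edgeR adjusted p = 3.07e-08), in contrast to the fall of Chia1. Clec7a and Lgals3, described above, belong to this list too.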

How the data were processed

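Per the labels' protocols, mouse lung RNA (TRIzol) was sequenced on a NovaSeq from NEBNext Ultra libraries. The authors deposited raw counts per gene with gene lengths. Tools named in the submitters' processing notes are featureCounts, HISAT2 and fastp, on GRCm38 (mm10), without version, order or settings. Strand use is not stated there. Depth was 15707937 to 19706494 counts per sample, and 0 columns belonged to other samples. None of 30 same-group pairs was a duplicate (chi-square divided by its degrees of freedom 6.91 to 239).

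Genes were kept by filterByExpr (minimum count 10), scaled by TMM and tested in edgeR 4.0.16 (R 4.3.3; robust quasi-likelihood F test, no covariate, Benjamini-Hochberg over 16185 genes, threshold 0.05). The SE of a log2 change was taken as the change divided by the root of F. CPM uses the TMM-scaled library, and log2 CPM a prior count of 2. Ratios within samples add 0.5 counts to each side. Intervals cover counting error only, since reads carry no molecular identifiers.

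The members and gene lists were chosen with earlier results of these data known, so their counts are descriptions. Named genes were all members, called genes of the short lists, up to 8 type 2 targets and 4 polymer-binding genes with the smallest p, the 2 closest profiles of each member, and a set given whatever the result. A gene that this rule names among the polymer-binding genes is not reported here. Ear11 matched no symbol. Alternatives were DESeq2 1.42.0, limma-voom (limma 3.58.1), other scalings and filters, each sample left out, control 5 and ALI 2 left out, and the replicate number as a block. Coordinates are those of GENCODE M21 by gene ID. Protein sequences were not used here.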

Additional observations from a re-analysis of the deposited data

Results flagged for a closer look

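Retnla in control 5 was 43.9 CPM, far above the next control at 13.4 CPM, and it was set apart as a sample far from the others of its group. In the same control the summed adipose markers were 5007 CPM, against 33.4 CPM in the next control, and the summed club cell markers were 28183 CPM, against 15228 CPM in the next. In ALI 2 the adipose sum was 687 CPM, against 16.1 CPM in the next ALI sample. Control 1 held 55.9 CPM of summed goblet cell markers, against 7.83 CPM in the next control. In all 26 groups of values were examined in this way and 5 stood out, where chance alone sets apart about 1 in 20.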

How the results depend on the processing

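In the 21 other fits (other tests, scalings and filters, each sample left out, control 5 and ALI 2 left out, and the replicate number as a block) the 4 tested members kept their direction and their call. Log2 changes ranged from 1.64 to 1.75 for Chil1, 1.96 to 2.18 for Chil3, -1.03 to -0.75 for Chia1 and 3.99 to 4.99 for Retnla, with a highest adjusted p of 0.00911. Called genes ranged from 4822 with the replicate block to 7768 with limma-voom. No scaling moved the median change of all genes by over 0.1. Replicate numbers did not pair the samples, since 1 of 6 same-numbered pairs had correlated deviations over 0.1 and 1 of 6 controls was most like its own number. Over those pairs the smallest exact p is 0.03125. With the replicate block the differences of Chia1 relative to Chil1 (-2.67), Chil3 relative to the alveolar macrophage sum (1.01) and Chil1 relative to the alveolar type 2 sum (1.94) had an exact adjusted p of 0.0938, and those of Chil3 relative to Retnla (-2.50) and to Chil4 (1.91) had 0.113. For the differences at an adjusted p of 0.0938 the unadjusted exact p was 0.03125, the smallest possible over the pairs. This test could therefore not have shown them as stronger. For the differences at 0.113 the unadjusted exact p was 0.0625. Without control 5 and ALI 2, Chil3 relative to Chil4 differed by 1.66 (exact permutation adjusted p = 0.0571) and Chil1 relative to the neutrophil sum turned to -0.00298. Without the most abundant marker of each sum, also added after the data were seen, Chil3 relative to the alveolar macrophage sum differed by 0.52 (exact permutation adjusted p = 0.0701) and Chia1 relative to the club cell sum by -0.0784, while both Chil1 ratios kept their side of the threshold. With a pseudocount of 2 counts, Chil1 relative to Chit1 differed by 1.30 (exact permutation adjusted p = 0.0156). With each sample left out, Chil1 relative to the neutrophil sum ranged from -0.0316 (without control 6) to 0.23 and Chia1 relative to the club cell sum from 0.58 to 1.05. The cause was not tested. Without control 5 and ALI 2, a choice added after the data were seen for the gene lists, 10 type 2 targets rose in place of 9 (Ccl17 and Pparg gained, Spdef lost at an edgeR adjusted p of 0.0605), 2 goblet cell markers rose in place of 3, of the club cell markers 1 rose and 3 fell, and no adipose marker was called in place of 1 lower of 4 tested. Depth limits Chil4 and Chit1, which had at most 6 counts in a sample.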
